A study of Schmidtea mediterranea with 24 samples.

Results

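A single transcript of the planarian *Schmidtea mediterranea*, SMESG000001159.1, was followed across 5 Hox RNAi groups and control RNAi. Its product is named protein disulfide-isomerase after its closest protein in another species, and the gene is 1 of 22197 in the table. It was chosen by its measured TPM, which lay below control in each of the 5 Hox RNAi groups. Its comparisons with control are therefore given as a description, without a test, and tests are given only between Hox RNAi groups and for other genes.

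Protein disulfide-isomerases are enzymes of the endoplasmic reticulum (ER). They form, break and rearrange the disulfide bonds of proteins that enter the secretory pathway, and in vertebrates 1 member of the family is also a subunit of the prolyl hydroxylase that modifies collagen. Cells that secrete much protein, such as gland cells, usually need much of this activity. Hox genes encode homeodomain transcription factors known for patterning the body axis.

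Whole adults of CIW4, a clonal asexual line, were fed dsRNA 7 times, starved for 5 days and frozen. The dsRNA matched *hox1*, *hox3a*, *hox3b*, *lox5b* or *post2b*, and control animals received *unc-22* dsRNA, so that all 6 groups had the same feeding. Each group had 4 libraries and each library pooled 3 animals, 24 libraries in all, so that spreads and p-values refer to pools. Whole animals were sequenced, and fewer cells of a type cannot be told apart from less RNA per cell. No table used here ties the silenced Hox transcripts to gene IDs, and their own loss was not analysed here.

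Levels are transcripts per 1000000 transcripts (TPM), which divide reads by transcript length. In low genes the TPM were whole multiples of 1 read, and whole reads could be recovered for 20189 of the 20190 genes above 0, each within 0.01 read. The libraries held 7119596 to 12067227 recovered reads, with the fewest in *lox5b* RNAi (7119596 to 9845309), against 9644175 to 11295881 in control RNAi. They are the smallest whole numbers that give the ratios. SMESG000001159.1 had 68 to 521 reads per library.

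The protein disulfide-isomerase transcript was lower in every Hox RNAi library than in every control library. In *hox1* RNAi the 4 libraries had 11.6, 9.54, 9.13 and 11.1 TPM. In *hox3a* RNAi they had 19.9, 13.9, 9.27 and 7.53 TPM. In *hox3b* RNAi they had 13.4, 20.3, 13.7 and 13.9 TPM. The *hox1* libraries lay close together, those of *hox3a* were spread widely, and in *hox3b* RNAi replicate 2 stood above 3 libraries of nearly equal level. In *lox5b* RNAi the libraries had 6.67, 9.23, 9.71 and 8.74 TPM. In *post2b* RNAi they had 16.3, 10.3, 13.9 and 13.7 TPM. In control RNAi they had 27.8, 24.3, 26.6 and 34.6 TPM. The highest Hox RNAi library (20.3 TPM, *hox3b* replicate 2) was thus below the lowest control library (24.3 TPM, replicate 2). Of the 15829 genes tested, 1.82% had all 20 Hox RNAi libraries below all 4 control libraries.

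**Figure D1:**
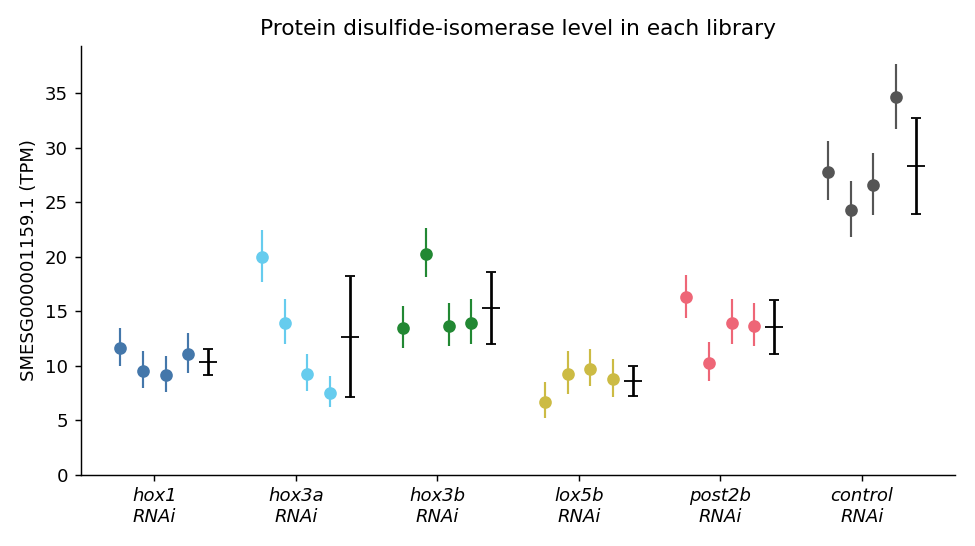
Level of SMESG000001159.1 in TPM (vertical axis, from 0) in each library (points) of the 5 Hox RNAi groups and control RNAi. Bars on points are 95% Poisson intervals from the recovered reads and cover counting error only, and the black marks are the mean ± SD of 4 libraries. All Hox RNAi libraries sit at or below 20.3 TPM, and the control libraries at or above 24.3 TPM.

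As a mean, the transcript reached 8.59 ± 1.34 TPM in *lox5b*, 10.3 ± 1.19 in *hox1*, 12.7 ± 5.55 in *hox3a*, 13.5 ± 2.49 in *post2b* and 15.3 ± 3.32 TPM in *hox3b* RNAi, against 28.3 ± 4.44 TPM in control animals (SD, n = 4 per group). The mean was 30.3% of the control mean in *lox5b*, 36.5% in *hox1*, 44.7% in *hox3a*, 47.8% in *post2b* and 54.1% in *hox3b* RNAi. On the scale of log2(TPM + 0.5), the log2 fold change over control was -1.67 in *lox5b*, -1.41 in *hox1*, -1.21 in *hox3a*, -1.04 in *post2b* and -0.87 in *hox3b* RNAi, each with a standard error of 0.21. That standard error comes from 1 linear model over all 24 libraries, which assumes 1 spread for all groups. The spread was not equal: the SD on this log2 scale was 0.60 in *hox3a* RNAi and 0.16 to 0.28 in the other Hox RNAi groups, against 0.21 in control RNAi. Without *hox3b* replicate 2 the *hox3b* mean was 13.7 ± 0.248 TPM (SD, n = 3), or 48.2% of the control mean.

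These differences were far out in the distribution of all genes. Of the 15829 genes tested, 106 had a lower log2 fold change in *lox5b* RNAi, 40 in *hox1*, 22 in *hox3a*, 125 in *post2b* and 68 in *hox3b* RNAi. The genes called lower than control, at 1.5-fold or more and an adjusted p under 0.05 (2-fold and 0.01 in *lox5b* RNAi), were 3.92% of the genes tested in *lox5b*, 1.58% in *hox1*, 4.07% in *hox3a*, 4.73% in *post2b* and 1.11% in *hox3b* RNAi. The study also set stricter limits in *lox5b* RNAi than in the other groups, but the p limits used here are lower than those it prints. Genes called lower in all 5 groups numbered 16, or 0.101%, and SMESG000001159.1 was 1 of them. Since the gene was chosen for this pattern, nothing further is read from these shares. The 5 comparisons also share the same 4 control libraries.

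In control animals the transcript was of moderate level. Its mean TPM was above that of 66.5% of the genes tested in control RNAi. In the Hox RNAi groups it was above that of 39.4% of genes in *lox5b*, 41.0% in *hox1*, 47.4% in *hox3a*, 49.5% in *post2b* and 50.7% in *hox3b* RNAi. The transcript thus had a place in the upper part of the distribution in control RNAi and near or below its middle after each Hox RNAi.

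The scale of the TPM moved with the groups. Median-of-ratios scale factors were 0.925 to 0.983 in *lox5b*, 0.943 to 0.996 in *hox3a* and 0.934 to 0.999 in *post2b* RNAi, against 1.05 to 1.10 in control RNAi. The median log2 fold change of all genes tested was -0.15 in *lox5b*, -0.06 in *hox1*, -0.14 in *hox3a*, -0.15 in *post2b* and -0.05 in *hox3b* RNAi. On TPM rescaled by these factors the log2 fold change of SMESG000001159.1 was -1.52 in *lox5b*, -1.35 in *hox1*, -1.06 in *hox3a*, -0.89 in *post2b* and -0.81 in *hox3b* RNAi. The highest rescaled Hox RNAi level was 20.5 TPM, in *hox3a* RNAi, against a lowest control level of 22.5 TPM. The groups did not overlap on either scale.

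Counting error was small beside the spread in *hox3a* RNAi. Counting alone gives a relative error of 8.02% per library there, and the SD between libraries was 43.8% of the mean. In *hox1* RNAi the same values were 8.42% and 11.5%, in *lox5b* RNAi 10.3% and 15.6%, and in control RNAi 5.01% and 15.7%. In *post2b* RNAi they were 7.42% and 18.4%, and in *hox3b* RNAi 6.85% and 21.6%. The SD between pools of animals exceeded counting error in all 6 groups, most of all in *hox3a* RNAi. There the 95% Poisson interval was 17.7 to 22.4 TPM for replicate 1 and 6.21 to 9.06 TPM for replicate 4.

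The order of the 5 Hox RNAi groups was then examined, from *hox3b* (highest) through *post2b*, *hox3a* and *hox1* to *lox5b* (lowest). All 10 pairs of Hox RNAi groups were compared in the same limma model. The differences hold no control value, but the control libraries enter the shared estimate of the spread behind the standard errors and p-values. The choice of the gene used its values in the Hox RNAi groups too, so the p-values of these pairs are not independent of that choice. Calls needed a 1.5-fold difference and an adjusted p under 0.05, over the 15829 genes tested. Both calls involved *lox5b* RNAi, in which the transcript was lowest. In *hox3b* RNAi the libraries (13.4 to 20.3 TPM) did not overlap those of *lox5b* RNAi (6.67 to 9.71 TPM), with a log2 difference of 0.79 (standard error 0.21, 95% interval 0.37 to 1.22, Benjamini-Hochberg adjusted p = 0.00569 in limma). In this comparison 6.46% of all genes tested were called higher and 15.8% had no overlap in that direction. In *post2b* RNAi (10.3 to 16.3 TPM) the log2 difference from *lox5b* RNAi (6.67 to 9.71 TPM) was 0.62 (95% interval 0.20 to 1.05, Benjamini-Hochberg adjusted p = 0.0291 in limma), where 4.11% of all genes were called higher and 9.72% had no overlap in that direction.

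The call between *post2b* and *lox5b* RNAi was lost in 5 of the 8 fits that left out 1 library. The log2 difference was 0.51 (adjusted p = 0.103) without *lox5b* replicate 1, 0.66 (0.0506) without *lox5b* replicate 2, 0.53 (0.101) without *post2b* replicate 1, 0.60 (0.058) without *post2b* replicate 3 and 0.61 (0.0552) without *post2b* replicate 4, with Benjamini-Hochberg values from limma. Without *lox5b* or *post2b* replicate 1 it was below 1.5-fold, and in the other 3 fits the difference stayed above 1.5-fold with an adjusted p just past the limit. Over all alternatives its adjusted p ran from 0.0169 to 0.103, and that of *hox3b* over *lox5b* RNAi from 0.00496 to 0.0952. With an exact permutation test of 4 against 4 libraries, two-sided, both pairs reached p = 0.0286, the smallest that this design can give, and 0.0952 after adjustment over the 10 pairs. *hox1* over *hox3b* RNAi reached the same exact p and the same adjusted value.

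The other 8 pairs did not pass. *hox3a* over *lox5b* RNAi had a log2 difference of 0.45 (95% interval 0.03 to 0.88, Benjamini-Hochberg adjusted p = 0.112 in limma). Without *hox3a* replicate 4, the lowest of that group, it was 0.66 (Benjamini-Hochberg adjusted p = 0.0169 in limma) and passed. *hox1* over *hox3b* RNAi had a log2 difference of -0.53 (95% interval -0.96 to -0.11, Benjamini-Hochberg adjusted p = 0.177 in limma). Its libraries, 9.13 to 11.6 TPM in *hox1* and 13.4 to 20.3 TPM in *hox3b* RNAi, did not overlap, as held for 5.34% of all genes in that direction. The neighbours in the order did not differ beyond their spread. Their intervals were -0.59 to 0.25 for *post2b* over *hox3b*, -0.26 to 0.59 for *post2b* over *hox3a*, -0.62 to 0.23 for *hox1* over *hox3a* and -0.16 to 0.69 for *hox1* over *lox5b* RNAi on the log2 scale. *hox3a* over *hox3b* RNAi gave -0.76 to 0.09, and *hox1* over *post2b* RNAi gave -0.79 to 0.06.

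**Figure D2:**
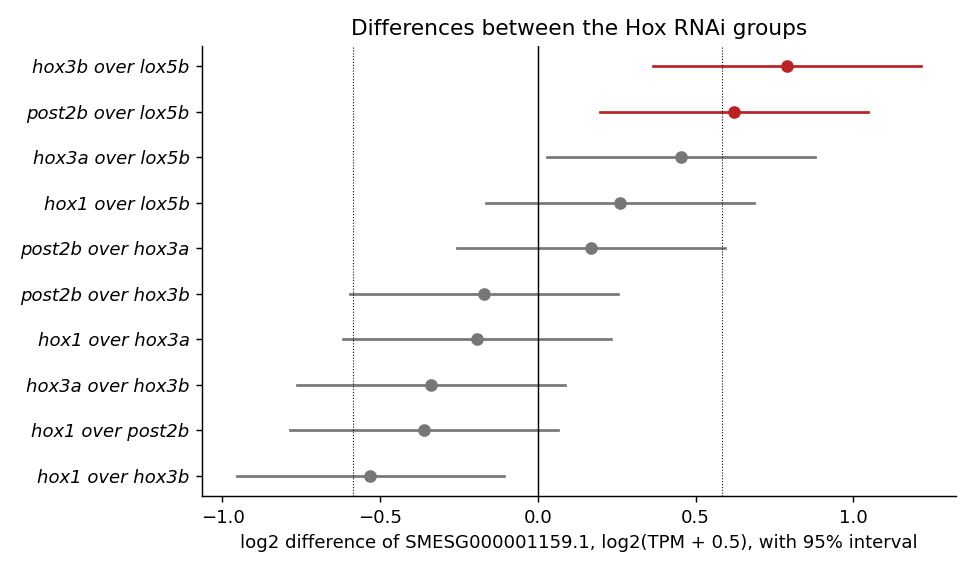
Log2 difference of SMESG000001159.1 (horizontal axis, log2(TPM + 0.5)) for the 10 pairs of Hox RNAi groups, first-named over second-named, with 95% intervals from the linear model (lines). Red marks the pairs called, *hox3b* over *lox5b* (0.79) and *post2b* over *lox5b* (0.62). Dotted lines mark a 1.5-fold difference.

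Other genes of the secretory pathway, and chaperones that act outside the ER, were examined beside the isomerase. Product names in the tables used here gave 49 such genes, of which 46 passed the filter on low values. The chaperones outside the ER were 5 of the 49 and 4 of the 46, and the counts and medians below include them. Names reach few genes, only 392 of the 11388 other genes with a mean of at least 5 TPM, so further isomerases and most of the pathway are not analysed here. Of the 46 genes, 1 was called lower in *lox5b* RNAi (3.92% of all genes tested), 1 in *hox1* (1.58%), 2 in *hox3a* (4.07%), 6 in *post2b* (4.73%) and 0 in *hox3b* RNAi (1.11%). The gene called in *hox1* RNAi (gm2a), and rcn-1, fktn and plg1 among those called in *post2b* RNAi, were candidates the study took from these same libraries. The counts in *hox1* and *post2b* RNAi are thus no evidence of an excess over the share of all genes. With the limits of the other groups, looser in both fold and adjusted p, 9 were called lower in *lox5b* RNAi, where 14.1% of all genes tested were. The limma-voom fit to recovered reads also called 0 in *hox3b* RNAi. At an unadjusted p under 0.05 in limma and any fold, 26 of the 46 genes were lower in *lox5b* RNAi (41% of all genes tested), 11 in *hox1* (16.4%), 16 in *hox3a* (34.2%), 21 in *post2b* (34.7%) and 10 in *hox3b* RNAi (17.1%). By the same limit 3 were higher in *lox5b* RNAi (17.1%), 0 in *hox1* (8.53%), 3 in *hox3a* (4.73%), 2 in *post2b* (5.59%) and 1 in *hox3b* RNAi (7.04%). With no fold limit, 23 had an adjusted p under 0.05 and were lower in *lox5b* RNAi, as were 16 in *post2b* RNAi, so that most of these differences were below the fold limits. Only *hox3a* RNAi had genes called higher, 2 of 46, where 0.847% of all genes tested were. The median log2 fold change of the 46 genes was -0.18 in *lox5b*, -0.11 in *hox1*, -0.16 in *hox3a*, -0.19 in *post2b* and -0.10 in *hox3b* RNAi, near the medians of all genes tested given above. No gene of the lists was called in more than 2 of the 5 groups.

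**Figure D3:**
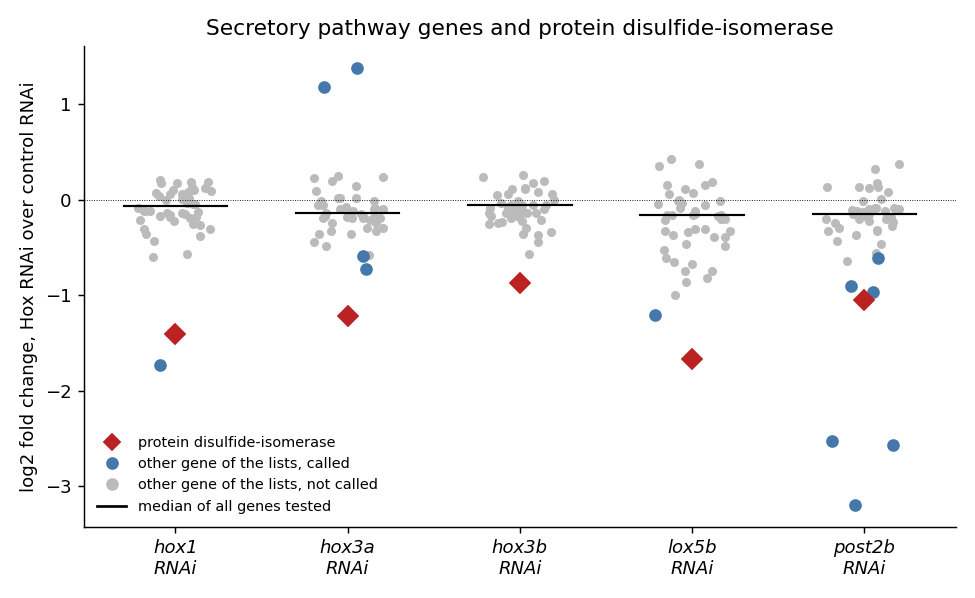
Log2 fold change over control (vertical axis) of SMESG000001159.1 (red diamonds) and of the 46 other list genes (circles, blue where called) in each Hox RNAi group. The list genes are secretory pathway genes and 4 chaperones that act outside the ER. Black lines are the median of all genes tested. The grey circles lie around that median, the isomerase lies at -0.87 to -1.67, and the lowest blue circle is plg1 at -3.19 in *post2b* RNAi.

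Of the 5 thiol and redox enzymes, 4 were tested and 0 were called in any group. ERp44 (SMESG000000781.1), a thioredoxin-family protein that retains client proteins in the early secretory pathway, had 132 ± 2.53 TPM in *lox5b*, 136 ± 7.75 in *hox1*, 125 ± 4.10 in *hox3a*, 134 ± 4.07 in *post2b* and 135 ± 2.40 TPM in *hox3b* RNAi, against 148 ± 5.43 TPM in control animals (SD, n = 4 per group). Its log2 fold changes ran from -0.12 in *hox1* to -0.25 in *hox3a* RNAi, lower in each group but under the fold limits. The Benjamini-Hochberg adjusted p in limma was 0.0013 in *hox3a*, 0.0038 in *lox5b* and 0.0188 in *post2b* RNAi. By the same fit it was 0.0753 in *hox3b* and 0.110 in *hox1* RNAi. Selenoprotein T (SMESG000002387.1), a redox protein of the ER, ran from -0.09 in *post2b* to 0.08 in *hox1* and *lox5b* RNAi. The other redox enzymes were 2 peroxiredoxins, with log2 fold changes between -0.20 and 0.18.

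None of the 3 genes for entry into the ER was called. Sec61 alpha (SMESG000003007.1), the channel through which new proteins enter the ER, had 693 ± 48.0 TPM in *lox5b*, 777 ± 40.1 in *hox1*, 795 ± 43.2 in *hox3a*, 776 ± 30.0 in *post2b* and 800 ± 39.4 TPM in *hox3b* RNAi, against 905 ± 27.5 TPM in control animals (SD, n = 4 per group). Its log2 fold change was lowest in *lox5b* RNAi, -0.39 (standard error 0.05, Benjamini-Hochberg adjusted p = 6.06e-06 in limma), which is under the 2-fold limit there. It was -0.22 in *hox1* (0.0207), -0.19 in *hox3a* (0.0158), -0.22 in *post2b* (0.0051) and -0.18 in *hox3b* RNAi (0.0576), with adjusted p from the same fit. All its Hox RNAi libraries (at most 847 TPM) lay below all control libraries (at least 884 TPM), as held for 1.82% of the genes tested. SRP9 and SRP14, subunits of the particle that brings ribosomes to the ER, had log2 fold changes between -0.13 and 0.13.

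Among the 6 genes for sugar and anchor addition, 1 was called. GPI ethanolamine phosphate transferase 2 (SMESG000000653.1), which acts in building the lipid anchor of cell surface proteins, fell in *post2b* RNAi to 6.02 ± 0.979 TPM, against 9.39 ± 0.668 TPM in control animals (SD, n = 4 per group), with a log2 fold change of -0.61 (Benjamini-Hochberg adjusted p = 0.00927 in limma). In *lox5b* RNAi it had 3.48 to 5.65 TPM over 4 libraries and a log2 fold change of -0.996, just short of the 2-fold limit. A second gene of that name (SMESG000000707.1) had log2 fold changes between -0.21 and -0.09. The likeness of their sequences was not examined, so whether the counting fully separated their reads is not known.

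Of the 4 genes for calcium binding and shape of the ER and Golgi, 2 were called. A gene named for sel-1-like 3 (SMESG000002836.1) fell in *hox3a* RNAi, with 2.47 ± 0.487 TPM, and in *post2b* RNAi, with 2.03 ± 0.521 TPM, against 4.38 ± 0.708 TPM in control animals (SD, n = 4 per group). Its log2 fold changes there were -0.72 (adjusted p = 0.00393) and -0.96 (adjusted p = 0.000388, both Benjamini-Hochberg values from limma). rcn-1 (SMESG000034805.1), a reticulocalbin and so a calcium-binding protein of the ER, fell in *post2b* RNAi to 592 ± 36.3 TPM, against 1109 ± 75.4 TPM in control animals (SD, n = 4 per group), with a log2 fold change of -0.90 (Benjamini-Hochberg adjusted p = 1.28e-08 in limma). In the other groups its log2 fold change ran from -0.14 in *hox1* to -0.22 in *hox3b* RNAi. The study took rcn-1, fktn, plg1 and gm2a as candidates from these same libraries, so that their calls are not independent evidence.

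Of 10 Golgi and vesicle genes, fktn (SMESG000017956.1), named for fukutin, a Golgi enzyme that modifies dystroglycan in vertebrates, fell in *post2b* RNAi to 0.129 ± 0.0971 TPM, against 3.09 ± 0.245 TPM in control animals (SD, n = 4 per group, Benjamini-Hochberg adjusted p = 4.81e-10 in limma). An Arf1 gene (SMESG000052762.1), a small GTPase of vesicle budding, rose in *hox3a* RNAi to 5.33 ± 1.26 TPM, against 1.76 ± 0.619 TPM in control animals (SD, n = 4 per group, Benjamini-Hochberg adjusted p = 0.00212 in limma). The other 8 genes were called in no group.

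Of 16 secreted and lysosomal proteins, 15 were tested. gm2a (SMESG000000730.1), named for the lysosomal ganglioside GM2 activator, fell in *hox1* RNAi to 441 ± 65.3 TPM, against 1458 ± 187 TPM in control animals (SD, n = 4 per group), with a log2 fold change of -1.73 (Benjamini-Hochberg adjusted p = 2.64e-09 in limma). It was the only list gene with a log2 fold change below that of the isomerase in *hox1* RNAi. A venom allergen 5 gene (SMESG000001227.1), of a family of secreted proteins, fell in *lox5b* RNAi to 45.1 ± 9.22 TPM and in *post2b* RNAi to 17.6 ± 4.82 TPM, against 104 ± 9.36 TPM in control animals (SD, n = 4 per group). plg1 (SMESG000018456.1), named for plasminogen, fell in *post2b* RNAi to 5.60 ± 2.97 TPM, against 50.6 ± 4.28 TPM in control animals (SD, n = 4 per group), with a log2 fold change of -3.19. A Kunitz domain protein (SMESG000038004.1), of a family of protease inhibitors, rose in *hox3a* RNAi to 1.43 ± 0.642 TPM, against 0.316 ± 0.123 TPM in control animals (SD, n = 4 per group, Benjamini-Hochberg adjusted p = 0.00539 in limma). Of the 5 chaperones that act outside the ER, 4 were tested and 0 were called in any group.

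A lipase (SMESG000002840.1), an enzyme that cleaves lipids, came nearest to the isomerase among the secreted proteins. It had 53.2 to 66.9 TPM in *lox5b*, 70.1 to 76.3 in *hox1*, 58.3 to 84.1 in *hox3a*, 62.1 to 76.7 in *post2b* and 60.8 to 82.6 TPM in *hox3b* RNAi, against 93.1 to 113 TPM in control RNAi. All its Hox RNAi libraries lay below all control libraries, as held for 1.82% of the genes tested. The log2 fold changes were smaller than those of the isomerase, from -0.43 in *hox1* to -0.75 in *lox5b* RNAi, and only that of *hox3a* RNAi (-0.59, Benjamini-Hochberg adjusted p = 0.00118 in limma) met both limits of a call.

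Likeness to the isomerase was then measured over all genes with a mean of at least 5 TPM, as Pearson's r over the 24 libraries on log2(TPM + 0.5). It is a description: the libraries share groups, controls and scale, and the median r of the 11388 genes was 0.28. The highest r was 0.92 for both SMESG000028481.1 and SMESG000069732.1, which have no product name. SMESG000069732.1 had 11.2 ± 0.972 TPM in *lox5b*, 17.4 ± 2.29 in *hox1*, 18.8 ± 5.48 in *hox3a*, 19.3 ± 4.30 in *post2b* and 19.5 ± 3.31 TPM in *hox3b* RNAi, against 30.3 ± 1.80 TPM in control animals (SD, n = 4 per group). It shared with the isomerase the lowest mean in *lox5b* RNAi and means below control in all Hox RNAi groups. Genes named by likeness were chosen by r over these same libraries, so such a shared pattern follows from the choice. SMESG000028481.1 was nearer to control, with log2 fold changes from -0.37 in *hox3b* and *post2b* to -0.61 in *lox5b* RNAi. With a product name, r was 0.86 for the lipase, 0.85 for a translation initiation factor 4E binding protein (SMESG000001074.1), a repressor of cap-dependent translation, and 0.84 for the peptidase SMESG000003235.1, named endothelin-converting enzyme 1. The size of the differences was unlike. Log2 fold changes of the 4E binding protein ran from -0.10 in *post2b* to -0.31 in *lox5b* RNAi. Those of the peptidase ran from -0.61 in *hox3b* to -2.07 in *lox5b* RNAi. Of the list genes the lipase and Sec61 alpha (r = 0.84) came first.

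**Figure D4:**
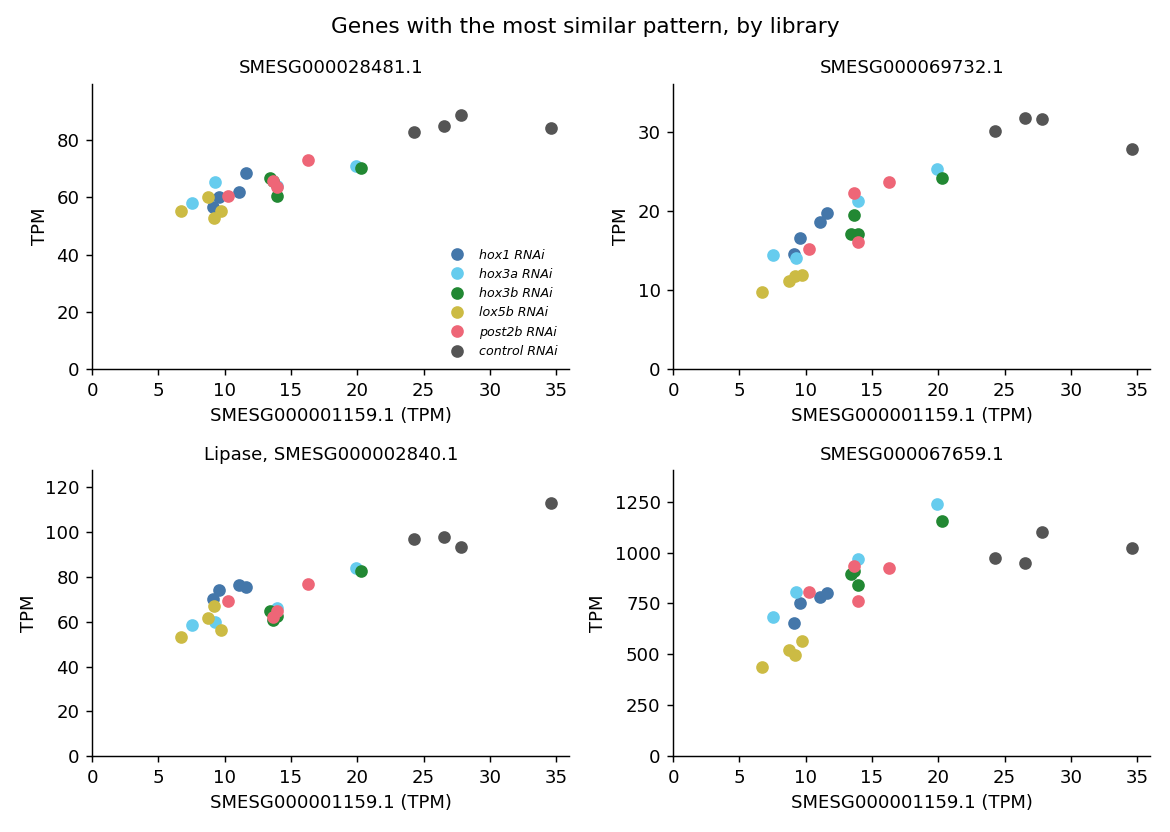
TPM of 4 genes (vertical axes, from 0) against the TPM of SMESG000001159.1 (horizontal axes, from 0), 1 point per library, coloured by RNAi group. SMESG000028481.1, SMESG000069732.1 and the lipase follow the isomerase over all libraries (r = 0.92, 0.92 and 0.86 on the log2 scale). SMESG000067659.1 follows it within groups (r = 0.88 of deviations from group means).

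The spread of the isomerase within groups was shared by other genes. After each group's mean was taken out, the highest r was 0.88 for SMESG000067659.1 and 0.84 for SMESG000069398.1, both without a product name. The median over all genes was 0.16 and the 99th percentile 0.74. The genes named here were chosen by that r, so a like order of libraries follows from the choice. In *hox3a* RNAi SMESG000067659.1 had 1236, 969, 806 and 686 TPM in replicates 1, 2, 3 and 4, the same order as the isomerase. In *hox3b* RNAi its highest library was also replicate 2, with 1154 TPM. The order was not shared in all groups. In control RNAi SMESG000067659.1 was highest in replicate 1 (1102 TPM) and the isomerase in replicate 4 (34.6 TPM). In *post2b* RNAi SMESG000067659.1 was highest in replicate 4 (933 TPM) and the isomerase in replicate 1 (16.3 TPM). With a product name, r was 0.82 for a ubiquitin family protein (SMESG000003392.1), 0.81 for an elongation factor EF-1 alpha subunit (SMESG000001959.1), which brings tRNA to the ribosome, and 0.80 for the lipase. The lipase likewise was highest in *hox3a* replicate 1 (84.1 TPM) and *hox3b* replicate 2 (82.6 TPM) within those groups.

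Markers of cell types were called only in *post2b* RNAi. In *post2b* RNAi all 3 viscid gland cell markers and all 7 anchor cell markers, all of them genes the study chose from these libraries, were called lower. Their summed level was 563 to 639 TPM for gland cells in *post2b* RNAi and 889 to 1124 TPM in the other Hox RNAi groups, against 1071 to 1246 TPM in control RNAi. Most of the gland cell sum was rcn-1, whose levels are given above. The study also describes rcn-1 in parapharyngeal cells, where *post2b* RNAi left it unaffected. The sum is thus not a level of gland cells alone. The median log2 fold change of the 3 gland cell markers in *post2b* RNAi was -1.91. For anchor cells the summed level was 38.02 to 168 TPM in *post2b*, 433 to 549 TPM in *lox5b* and 531 to 817 TPM in the other Hox RNAi groups, against 575 to 729 TPM in control RNAi. The anchor cell sum of each *lox5b* library was thus below that of each control library, with a median log2 fold change of -0.34 over the 7 genes. The median of all genes tested was -0.15 there, and no share over all genes stands beside this sum. In *hox1*, *hox3a*, *hox3b* and *lox5b* RNAi, where the isomerase was also lower, 0 of the 23 tested markers of gland, anchor, muscle, ciliated and neural cells were called by limma. At an unadjusted p under 0.05 they numbered 6 lower and 6 higher in *lox5b* RNAi, where 41% of all genes were lower and 17.1% higher. They numbered 1 and 3 in *hox1* (16.4% and 8.53% of all genes), 4 and 3 in *hox3a* (34.2% and 4.73%), and 1 and 4 in *hox3b* RNAi (17.1% and 7.04%). No marker was at 0 in all libraries of a group.

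The sums of the other markers are given for *lox5b* RNAi, where the isomerase was lowest, beside the other groups. Muscle markers summed to 2455 to 2566 TPM in *lox5b* RNAi and 2024 to 2457 TPM in the other Hox RNAi groups, against 2105 to 2253 TPM in control RNAi. Markers of ciliated cells summed to 131 to 160 TPM in *lox5b* and 99.3 to 121 TPM in the other Hox RNAi groups, against 92.9 to 117 TPM in control RNAi. Neural markers summed to 33.9 to 39.3 TPM in *lox5b* and 32.7 to 51.6 TPM in the other Hox RNAi groups, against 39.1 to 48.1 TPM in control RNAi. In *lox5b* RNAi the muscle and ciliated cell sums lay above those of all control libraries. The muscle sums of *hox3b* RNAi (2260 to 2453 TPM) also lay above all control libraries, so that shift was not particular to *lox5b* RNAi. No share over all genes stands beside these sums, and nothing further is read from them. The part of these shifts in the level of the isomerase was not tested.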

How the data were processed

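Whole animals were measured by stranded, single-read mRNA sequencing. The authors demultiplexed reads with bcl2fastq 2.20 (submitters' processing notes), aligned them with STAR to smed_dd_g4 with the Smes_hv_v1 gene models, and tested counts with edgeR. The TPM values deposited by the authors sum to 1000000 per library. The tool that made TPM is not given in the sources used here.

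TPM were analysed as log2(TPM + 0.5) in limma 3.58.1 under R 4.3.3 (intensity trend, two-sided, Benjamini-Hochberg adjustment), with all 24 libraries in 1 model with a term for RNAi group. Genes with at least 0.5 TPM in at least 4 libraries were tested (15829). Reads recovered from TPM gave Poisson intervals and a limma-voom fit, added after seeing the data. The fit and the recovery were tested on simulated data. Intervals cover counting error only.

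The gene, lists, tests and named genes were chosen with earlier results of these data known. Named were the isomerase, every list gene called against control, ERp44, Sec61 alpha, and by likeness the 2 genes highest in r and the 3 highest with a product name. The authors' fold changes and p-values in supplementary tables were not used. Alternatives were other pseudocounts, filters and scales, no trend, only the groups compared, a replicate block, 1 limit for all groups, an exact permutation test, and leaving out each library.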

Additional observations from a re-analysis of the deposited data

Results flagged for a closer look

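SMESG000001159.1 in *hox3b* RNAi had 1 library far from the others: replicate 2 had 20.3 TPM, and the other 3 had 13.4 to 13.9 TPM. Without it the log2 fold change over control was -1.01, against -0.87 with all 4 libraries.

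The same measure picked out 3 further values among the 126 sets of 4 libraries of the 21 genes named, where chance alone picks about 1 in 20. GPI ethanolamine phosphate transferase 2 (SMESG000000653.1) had 10.4 TPM in control replicate 1 and 8.97 to 9.14 TPM in the other control libraries. rcn-1 (SMESG000034805.1) had 1054 TPM in *hox3b* replicate 3 and 906 to 924 TPM in the other 3. The 4E binding protein (SMESG000001074.1) had 248 TPM in control replicate 4 and 224 to 227 TPM in the other control libraries.

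The isomerase differed between Hox RNAi groups by the limma test of the difference itself in 2 pairs, with a log2 difference of 0.79 for *hox3b* over *lox5b* RNAi and 0.62 for *post2b* over *lox5b* RNAi. Neither pair passed the exact permutation test adjusted over the 10 pairs (adjusted p = 0.0952 each). The second call was also lost in 5 of the 8 fits that left out 1 library. *lox5b* RNAi also had the lowest recovered depth.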

How the results depend on the processing

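The fall of the isomerase against control kept its direction in all 65 alternatives, for a gene chosen for that fall. Under other pseudocounts, rescaled TPM and the limma-voom fit it moved by less than the spread between libraries. Leaving out 1 of 4 libraries cannot move a mean past that spread, and the replicate block leaves the difference unchanged, so these fits could not fail that limit. Leaving out 1 library, the log2 fold change in *hox3a* RNAi ran from -1.45 to -1.01. Of 180 alternatives for the 10 direct pairs, 170 kept direction and call. By the exact permutation test adjusted over the 10 pairs, *hox3b* over *lox5b* (log2 difference 0.79) and *post2b* over *lox5b* RNAi (0.62) no longer passed (adjusted p = 0.0952 each). Leaving out 1 library, *post2b* over *lox5b* ran from 0.51 to 0.74, *hox3a* over *lox5b* from 0.21 to 0.66, *post2b* over *hox3a* from -0.0386 (reversed, without *hox3a* replicate 4) to 0.41, and *hox1* over *hox3a* RNAi from -0.40 to 0.0493 (reversed, without *hox3a* replicate 1). The cause was not tested.

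The number of list genes called in *lox5b* RNAi was 1, and 9 with the limits of the other groups, looser in both fold and adjusted p by construction. It was 2 with a pseudocount of 0.1, and 1 to 2 leaving out 1 library (2 without *lox5b* replicate 3 or 4 or control replicate 2, 3 or 4). Leaving out 1 library gave 1 to 2 in *hox1* (2 without *hox1* replicate 1) and 0 to 1 in *hox3b* RNAi (1 without *hox3b* replicate 2 or control replicate 1). Counts ran from 3 to 5 in *hox3a* and from 5 to 7 in *post2b* RNAi, within 1.5 times. With the filter at a mean of at least 2 TPM the *hox3a* count was 3, against 4.

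The titles carry a running number over all 24 libraries, and the replicate numbers used here follow that order within each group. The titles do not say that libraries are paired, so the replicate block rests on assigned numbers. Same-numbered libraries did not deviate together (9 of 60 pairs over r = 0.1, 6 of 24 libraries nearest their own number). With the replicate block, *hox3b* over *lox5b* had 0.79 (adjusted p = 0.00832) and *post2b* over *lox5b* RNAi 0.62 (Benjamini-Hochberg adjusted p = 0.0377 in limma), and no call of the isomerase changed. Depth limited *lox5b* RNAi most, with 68 to 132 reads of the isomerase.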
